A study of Mus musculus with 23 samples.

Results

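The day 1 heart response common to isoproterenol (ISO), a synthetic beta-adrenergic agonist, and lipopolysaccharide (LPS), the endotoxin of Gram-negative bacteria, was examined in 15 of the 23 heart libraries of the series. All hearts came from wild-type C57BL/6J females aged 10 weeks. The day 1 groups were 3 libraries after ISO at 300 mg/kg and 4 after LPS at 2.5 mg/kg, and each agent had its own baseline of 4 libraries. Poly-A RNA of whole hearts was sequenced in bulk. The labels give the treatment of both baselines as none and mention no vehicle. On these labels an effect of injection or handling cannot be told apart from an effect common to the agents. The labels do not say whether a library is a single heart, and p-values measure the spread between these libraries. Genes were first tested for a main effect of treatment, with the arm (ISO or LPS) as a block, and then within each arm. A gene counted as shared and of similar size when it passed in the main effect and in both arms with the same sign, when its log2 changes in the arms differed by no more than that of a 1.5-fold change, and when the smaller change was at least 0.667 of the larger. This held for 3506 of the 15340 genes tested. The resemblance of the arms in these genes is therefore how they were chosen, and is described without a test.

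Isoproterenol in excess drives beta-adrenergic receptors and cyclic AMP in cardiomyocytes and is a standard model of acute catecholamine injury of the heart. Lipopolysaccharide acts through Toll-like receptor 4 on innate immune and other cells and depresses the heart by way of cytokines. Injuries of many kinds are known to raise stress-protective proteins such as metallothioneins and heme oxygenase, proteins that control extracellular proteolysis and clotting, and signalling through STAT3 and NF-kB, and glucocorticoids from the adrenal gland rise in systemic illness.

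The 15 libraries held 20910371 to 29638113 estimated reads, of which 22.3% to 29.3% came from mitochondrially encoded genes. Cardiomyocyte genes were abundant in all of them: the cardiac myosin heavy chain Myh6 stood at 7800 to 13270 TPM (a share of all transcripts that allows for gene length). The 4 LPS day 1 libraries fell into pairs. With a chi-square of the gene counts divided by its degrees of freedom as the measure, replicates 1 and 2 were 14.0 apart and replicates 3 and 4 11.01 apart, whereas libraries from different pairs differed by 32.0 to 48.3. In the ISO day 1 group, replicates 2 and 3 differed by 29.97. Within the baselines the values ran from 4.22 to 13.3. Without LPS day 1 replicates 1 and 2, 2475 of the 3506 genes kept a similar size (70.6%) and 3214 were still called in both arms. Without replicates 3 and 4 the counts were 2690 (76.7%) and 3357. Leaving out ISO day 1 replicate 2 or 3 kept 3021 or 2998 genes at a similar size. The sign of the main effect stayed in all 3506 genes in these fits.

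By the main effect of treatment, 5305 genes (34.6% of those tested) were higher and 5170 (33.7%) lower at day 1, at an adjusted p under 0.05 in edgeR's quasi-likelihood test. In the ISO arm 5070 genes (33.1%) were higher and 5118 (33.4%) lower. In the LPS arm 5138 (33.5%) were higher and 5126 (33.4%) lower. The arms share no library. In both arms and the main effect, 3420 genes (22.3%) were higher and 3465 (22.6%) lower, which was 67.5% of the ISO genes and 66.6% of the LPS genes that were higher, and 67.7% and 67.6% of those that were lower. Another 846 genes passed in both arms with opposite signs. The difference between the arms' changes itself passed for 5737 genes (37.4%). Similar size left 1678 genes higher (10.9%) and 1828 lower (11.9%), and 445 (2.9%) and 741 (4.83%) of them changed at least 2-fold in each arm. For 2052 of the 3506 genes the 95% interval of the difference between arms lay within a 1.5-fold change, and for 150 a difference was still called. Among the genes of similar size, day 1 and baseline libraries did not overlap in either arm for 1528 of those higher and 1627 of those lower. These genes had already passed in both arms, and the share over all tested genes was not counted. The counts without overlap are therefore no further result about them.

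**Figure D1:**
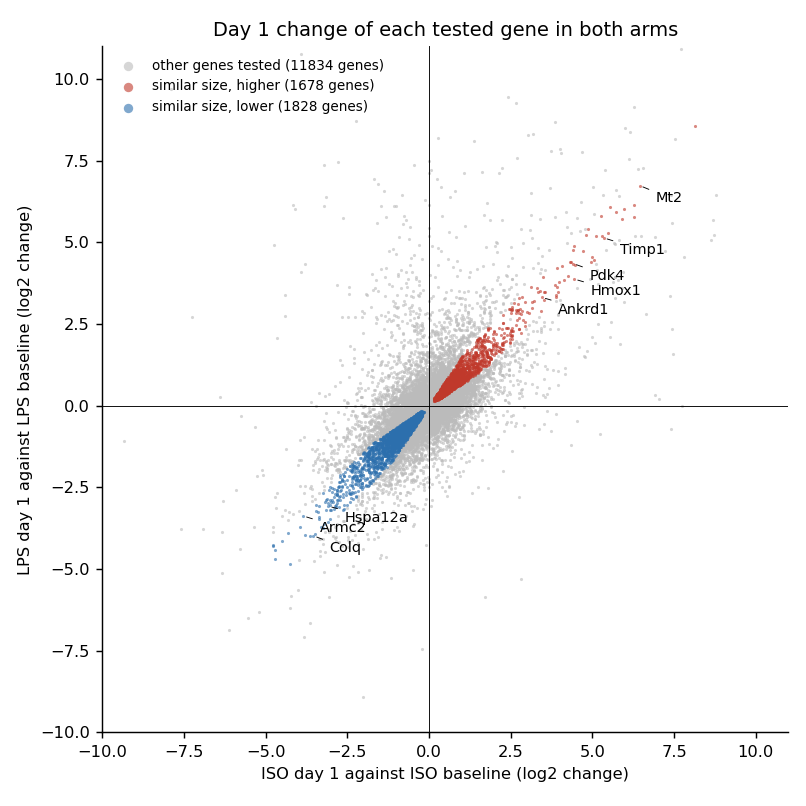
Log2 change at day 1 in the ISO arm (horizontal axis) against the LPS arm (vertical axis) for each of the 15340 tested genes. The 1678 shared genes higher (red) and 1828 lower (blue) lie along the diagonal because they were chosen for similar size. Grey points away from it are genes whose changes differed between arms, including 846 called with opposite signs.

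At the limits of the choice, Gm2115 was just inside the limit on the difference, with log2 changes of -2.72 (ISO) and -2.13 (LPS), and 2810006K23Rik just outside it with -1.93 and -1.34. Zfp746 was just inside the limit on the ratio, with 0.38 and 0.58, and Gtf2f1 just outside it with 1.16 and 0.77.

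The leading genes were taken among those that averaged 5 CPM (reads relative to library size, after TMM scaling) or more in each arm's higher group and had no overlap between day 1 and baseline libraries. Among these, Mt2 (metallothionein 2, which binds zinc and other metals) rose most, followed by Lrp8 (a lipoprotein and reelin receptor), Ch25h (cholesterol 25-hydroxylase), Timp1 (an inhibitor of matrix metalloproteinases) and the long noncoding RNA Gm12840. Sphk1 (sphingosine kinase 1), Plaur (the urokinase receptor), Pdk4 (a kinase that inactivates pyruvate dehydrogenase), Mt1 (metallothionein 1), Tent5b (a poly(A) polymerase), Mmp3 (stromelysin 1), Ccl2 (a monocyte chemokine), Pgf (placental growth factor) and Hmox1 (heme oxygenase 1) were also among the 15 genes with the largest smaller-arm change. Their log2 changes lay between 3.88 (Hmox1, LPS arm) and 6.74 (Mt2, LPS arm). In each of these genes the 95% interval of the difference between arms reached beyond a 1.5-fold change. In log2 units it ran from -0.50 to 0.63 for Mt1, from -0.67 to 1.27 for Mt2 and from -2.40 to 2.22 for Ch25h. Their similar size is thus that of the estimates.

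Mt2 stood at 13.7, 12.1, 7.44 and 12.7 CPM in the ISO baseline libraries and at 1107, 1086 and 821 CPM at ISO day 1. In the LPS arm it went from 10.1, 6.80, 9.47 and 9.01 to 1177, 1594, 504 and 527 CPM. All 7 day 1 libraries were far above all 8 baseline libraries, and LPS day 1 replicates 1 and 2 were above replicates 3 and 4. The change was 87.0-fold in the ISO arm (log2 6.44 ± 0.38, SE) and 107-fold in the LPS arm (6.74 ± 0.38), with a main effect adjusted p of 3.86e-11 (edgeR quasi-likelihood). Without LPS day 1 replicates 1 and 2 the LPS value was 5.86. Its neighbour Mt1 was the more abundant transcript per length, with mean TPM of 305 and 231 at the ISO and LPS baselines and 6410 and 4710 at day 1, against 2861 and 2654 for Mt2 at day 1. Mt1 rose 20.2-fold and 21.2-fold.

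Among the genes for matrix proteolysis and fibrinolysis, Timp1 was at 0.852, 0.824, 0.778 and 1.02 CPM in the ISO baseline and 36.8, 40.6 and 30.02 CPM at ISO day 1. In the LPS arm it was at 0.941, 0.688, 0.947 and 1.03 CPM before and 39.1, 37.2, 29.7 and 22.2 CPM after. The groups were apart by a wide margin, and the day 1 levels of the arms overlapped. Timp1 rose 40.7-fold and 35.2-fold (log2 5.35 ± 0.21 and 5.14 ± 0.20, SE), with an adjusted p of 6.48e-13 (edgeR). Mmp3, one of the enzymes that TIMP proteins inhibit, rose 19.8-fold and 20.9-fold, and Plaur 31.3-fold and 21.2-fold.

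Some of the rises depended on the library. In Hmox1, Ch25h, Sphk1, Ccl2 and Socs3, LPS day 1 replicates 1 and 2 were above replicates 3 and 4. Without replicates 1 and 2 the LPS log2 changes were 2.72, 4.17, 4.26, 3.55 and 2.82 in that order, against 3.88, 5.21, 5.23, 4.28 and 3.64 with all 4 libraries. Without replicates 3 and 4 Hmox1 was at 4.52 and Ch25h at 5.83. All of these genes remained called in both arms in these fits.

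Among the 15 leading risers Pdk4 had the highest day 1 level after the metallothioneins, at a mean of 1488 TPM (ISO) and 1616 TPM (LPS) against 66.9 and 81.5 TPM at the baselines. Its baseline libraries were 100, 149, 122 and 370 CPM (ISO) and 217, 214, 290 and 193 CPM (LPS). The day 1 libraries were 4378, 3952 and 3575 CPM after ISO and 4872, 6115, 3921 and 3882 CPM after LPS. ISO baseline replicate 4 was the highest baseline library, still below every day 1 library. The rise was 21.3-fold and 20.4-fold (log2 4.41 ± 0.35 and 4.35 ± 0.34, SE).

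**Figure D2:**
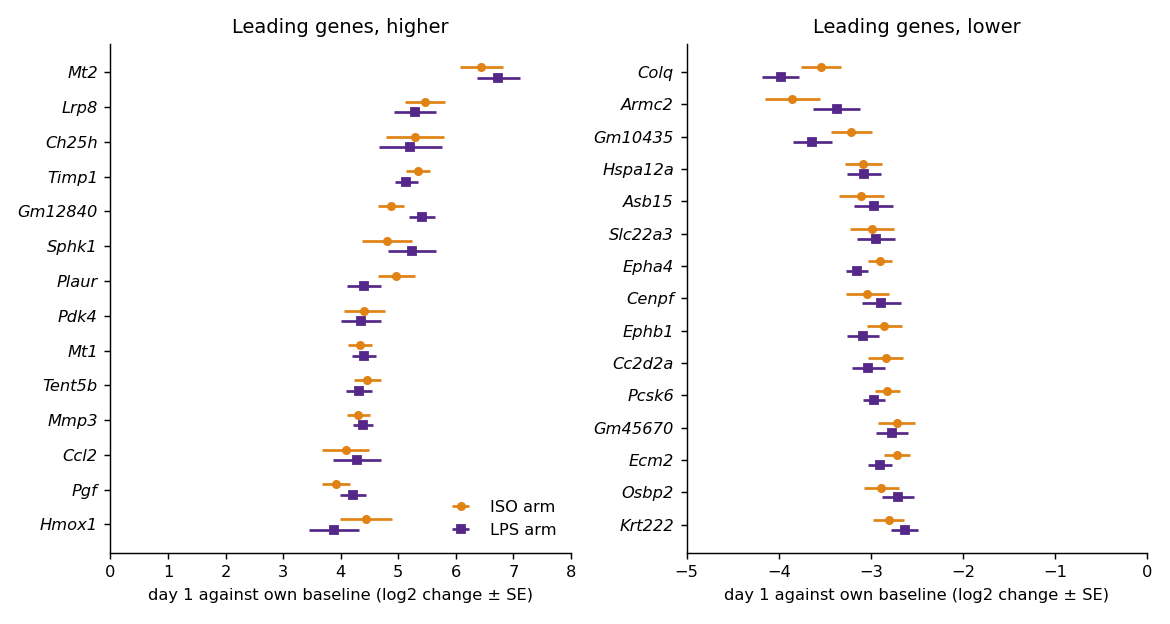
Log2 change at day 1 against the same arm's baseline for 14 of the 15 shared genes with the largest rise (left) and the 15 with the largest fall (right), with the ISO arm as circles, the LPS arm as squares and bars of 1 standard error. The changes run from 3.88 to 6.74 on the left and from -2.63 to -3.98 on the right.

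Promoters of the leading genes were read because they moved together. RefSeq's table of GRCm38.p6 promoters (250 bases before to 50 after each start) held 11 of the 15 leading risers, 10 of the 15 leading fallers and 10948 of the 15340 genes tested. Where a gene had several such windows (5 for Sphk1 and 3 for Lrp8), only the first listed was searched. The letters TGANTCA, on either strand, are the core bound by AP-1 (dimers of FOS and JUN proteins). They occurred in 3 of the 11 risers, Mt2, Plaur and Mmp3, and in 0 of the 10 fallers. They occurred in 8.55% of the promoters of genes at least 2-fold higher, 3.04% of those at least 2-fold lower and 5.0% of those of all tested genes. Over the whole table, with only the first window of each gene symbol, the share was 7.93% of 27025 promoters. The 250 bases upstream of the start of these 3 genes are shown 5′ to 3′ with the match in capitals, on the plus strand at chr8:94172368-94172617 (Mt2), chr7:24462233-24462482 (Plaur) and chr9:7445572-7445821 (Mmp3).
Mt2: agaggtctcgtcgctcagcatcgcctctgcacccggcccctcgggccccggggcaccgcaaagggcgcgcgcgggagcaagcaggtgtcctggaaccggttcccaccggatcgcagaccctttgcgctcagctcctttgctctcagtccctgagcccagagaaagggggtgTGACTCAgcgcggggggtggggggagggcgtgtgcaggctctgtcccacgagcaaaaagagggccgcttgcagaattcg
Plaur: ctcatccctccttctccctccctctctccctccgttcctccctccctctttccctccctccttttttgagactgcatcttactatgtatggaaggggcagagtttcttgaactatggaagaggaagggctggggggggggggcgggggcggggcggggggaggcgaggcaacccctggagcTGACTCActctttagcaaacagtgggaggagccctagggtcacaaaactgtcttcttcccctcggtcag
Mmp3: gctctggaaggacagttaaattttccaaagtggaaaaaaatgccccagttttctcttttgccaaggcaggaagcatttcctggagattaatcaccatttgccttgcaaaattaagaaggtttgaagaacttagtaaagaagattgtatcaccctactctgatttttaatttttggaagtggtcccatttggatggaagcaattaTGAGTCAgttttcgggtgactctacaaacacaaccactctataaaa
The matches begin 79, 69 and 46 bases before the start. The other letters searched on both strands were TGACGT (a core of cyclic AMP response elements), CACGTG (the E-box), TGCNCNC (the core of metal response elements) and TTCNNNGAA (a palindrome bound by STAT proteins). Their shares in the genes at least 2-fold higher were 10.5%, 11.2%, 58.6% and 8.88%, against 11.6%, 10.1%, 59.8% and 6.83% of all tested genes. Mt2 held 6 matches of the metal response core and Mt1 3. A match is a description of these letters in this window and no evidence of binding.

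By the same limits, Colq (the collagen tail that anchors acetylcholinesterase) fell most, and Armc2, Gm10435, Hspa12a (a distant HSP70 relative), Asb15 (a muscle subunit of a ubiquitin ligase), Slc22a3 (a transporter of organic cations, catecholamines among them), the ephrin receptors Epha4 and Ephb1, Cenpf (a kinetochore protein), Cc2d2a (a protein of the ciliary transition zone), Pcsk6 (a proprotein convertase), Gm45670, Ecm2, Osbp2 and Krt222 followed. Gm10435 and Gm45670 are annotated as antisense genes, and reads of their partners cannot be told apart because the strand setting is not given in the sources used here.

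Colq was at 11.003, 11.2, 9.74 and 13.7 CPM in the ISO baseline and 0.733, 1.43 and 0.708 CPM at ISO day 1. The LPS baseline libraries were at 13.5, 16.8, 15.9 and 13.1 CPM and the LPS day 1 libraries at 0.632, 0.996, 1.28 and 0.889 CPM. No day 1 library reached a baseline level, and the arms overlapped at day 1. Colq was 11.6-fold lower after ISO and 15.8-fold lower after LPS (log2 -3.54 ± 0.22 and -3.98 ± 0.20, SE), with an adjusted p of 5.83e-11 (edgeR).

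Hspa12a had nearly the same change in both arms. Its level went from 38.6, 38.6, 37.1 and 35.9 CPM to 5.43, 3.13 and 4.95 CPM after ISO, and from 42.6, 46.0, 34.1 and 33.5 CPM to 3.46, 3.34, 5.50 and 6.12 CPM after LPS. The log2 changes were -3.08 ± 0.20 and -3.08 ± 0.18 (SE), and the 95% interval of their difference ran from -0.55 to 0.57. Epha4 fell 7.46-fold and 8.88-fold, and Pcsk6 7.06-fold and 7.83-fold. Asb15 fell 8.61-fold and 7.84-fold. In Armc2, Asb15 and Slc22a3, LPS day 1 replicates 3 and 4 were less low, and without them the LPS log2 changes were -4.09, -3.65 and -3.61 against -3.37, -2.97 and -2.95. Cenpf, a gene of dividing cells, went from 23.9, 45.2, 28.8 and 32.4 CPM to 4.61, 3.95 and 3.37 CPM after ISO and from 27.9, 22.8, 37.4 and 33.1 CPM to 2.86, 4.33, 4.92 and 4.41 CPM after LPS. It was the only one of 16 tested mitosis genes called in both arms, and that list had a median main effect of -0.24.

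**Figure D3:**
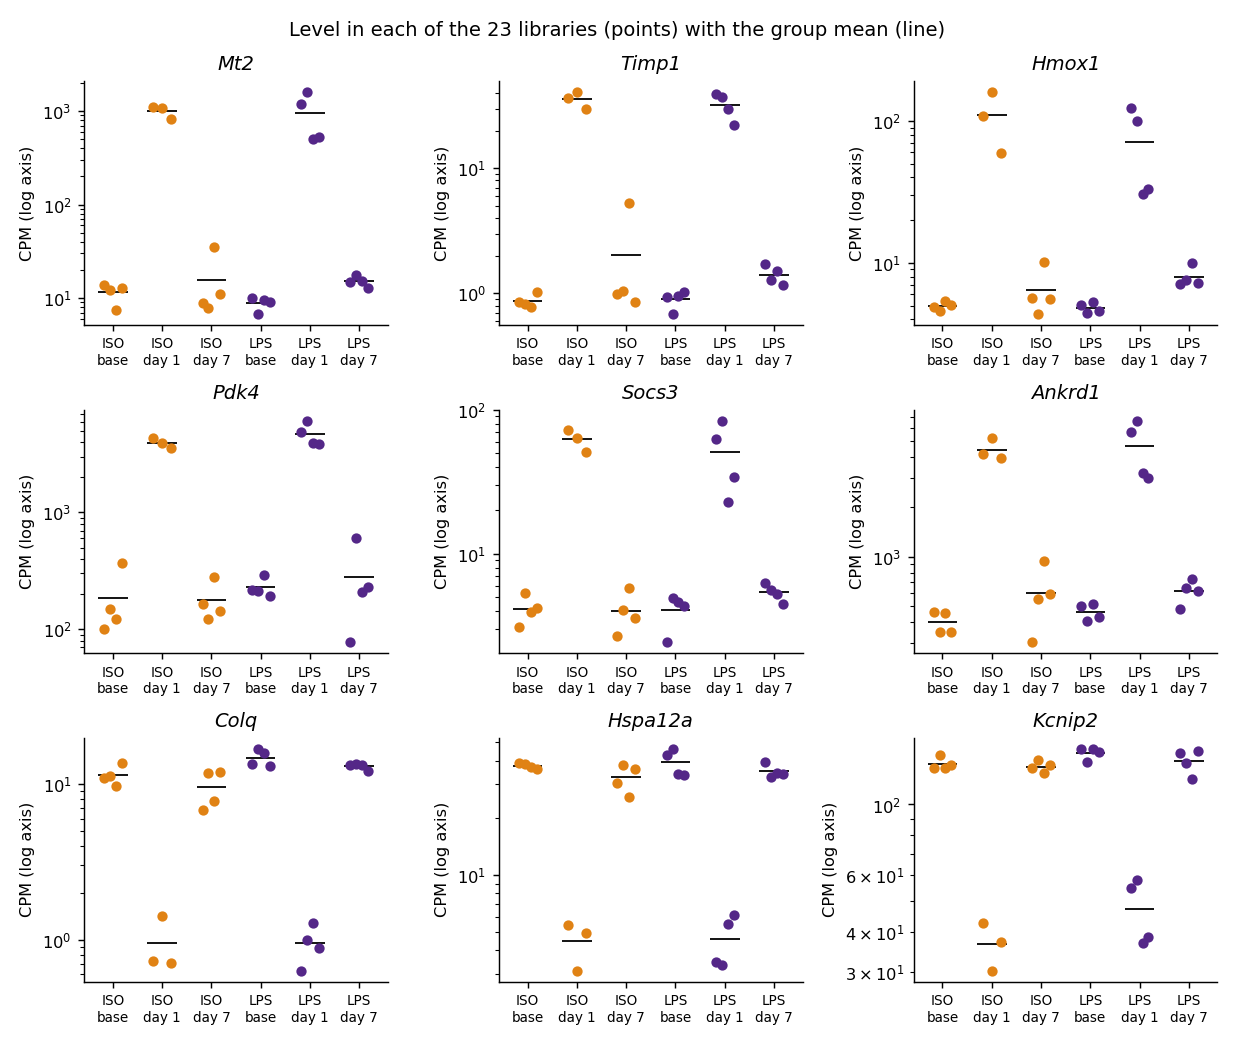
CPM on a log axis of 9 shared genes in all 23 libraries, with points for libraries and lines for group means, ISO arm in orange and LPS arm in purple. The 6 upper and middle panels show genes that were high at day 1 and the 3 lower panels genes that were low. LPS day 1 replicates 1 and 2 (the first pair of points) lie above replicates 3 and 4 in all 6 upper and middle panels and in Kcnip2.

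The counts of gene lists are read against all 15340 tested genes. Of these, 22.3% were higher and 22.6% lower in both arms, and 10.9% and 11.9% by a similar size. The difference between arms passed for 37.4% of them. Genes of cytosolic ribosomal proteins rose together by modest amounts. Of 77 cytosolic ribosomal protein genes, 75 rose in both arms and 0 fell, and 64 did so by a similar size, with list medians of 0.69 (ISO) and 0.54 (LPS) log2 against -0.01 and 0.00 over all tested genes. Rps6, a protein of the small ribosomal subunit, was at 118 to 125 CPM in the ISO baseline and 235, 256 and 222 CPM at ISO day 1, and at 102 to 109 CPM in the LPS baseline and 199, 227, 174 and 183 CPM at LPS day 1. The groups did not overlap, and the rise was 1.93-fold and 1.86-fold. Rps18 rose 1.97-fold and 1.76-fold, Rps19 1.89-fold and 1.67-fold, and Rpl13a 1.78-fold and 1.59-fold. Ribosomal protein genes have many near-identical pseudogenes, which makes their estimated counts uncertain.

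The genes that build ribosomes rose too, less evenly between the arms. Of 35 such genes 29 were higher in both arms and 1 lower, and 11 rose by a similar size. They include Ftsj3 (2.55-fold and 2.38-fold) and Mybbp1a (2.36-fold and 1.99-fold), which act in ribosomal RNA processing and transcription, Ncl (nucleolin, 2.24-fold and 2.06-fold) and Pes1 (1.89-fold and 1.68-fold). For 16 of the 35 the difference between arms passed. The enzymes that charge transfer RNAs were higher in both arms for 12 of 20 genes and lower for 1, and the difference between arms passed for 11. Of similar size were 6, among them Aars (1.83-fold and 1.59-fold), Tars, Gars and Vars (1.51-fold and 1.56-fold).

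The proteasome, which degrades ubiquitin-tagged proteins, followed: 31 of 35 genes rose in both arms, 1 fell and 20 rose by a similar size. The list medians were 0.40 (ISO) and 0.59 (LPS) log2, and the difference between arms passed for 14. Psma5, a subunit of the core, went from 22.1, 20.4, 19.7 and 20.4 CPM to 50.5, 52.1 and 41.3 CPM after ISO and from 22.7, 17.4, 18.4 and 18.3 CPM to 52.5, 47.4, 49.3 and 47.6 CPM after LPS. It was higher in every day 1 library, 2.31-fold and 2.55-fold. Psmd11, a lid subunit, rose 3.55-fold and 2.50-fold, and Psmd3 and Psmc4 by 1.65-fold to 1.88-fold.

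**Figure D4:**
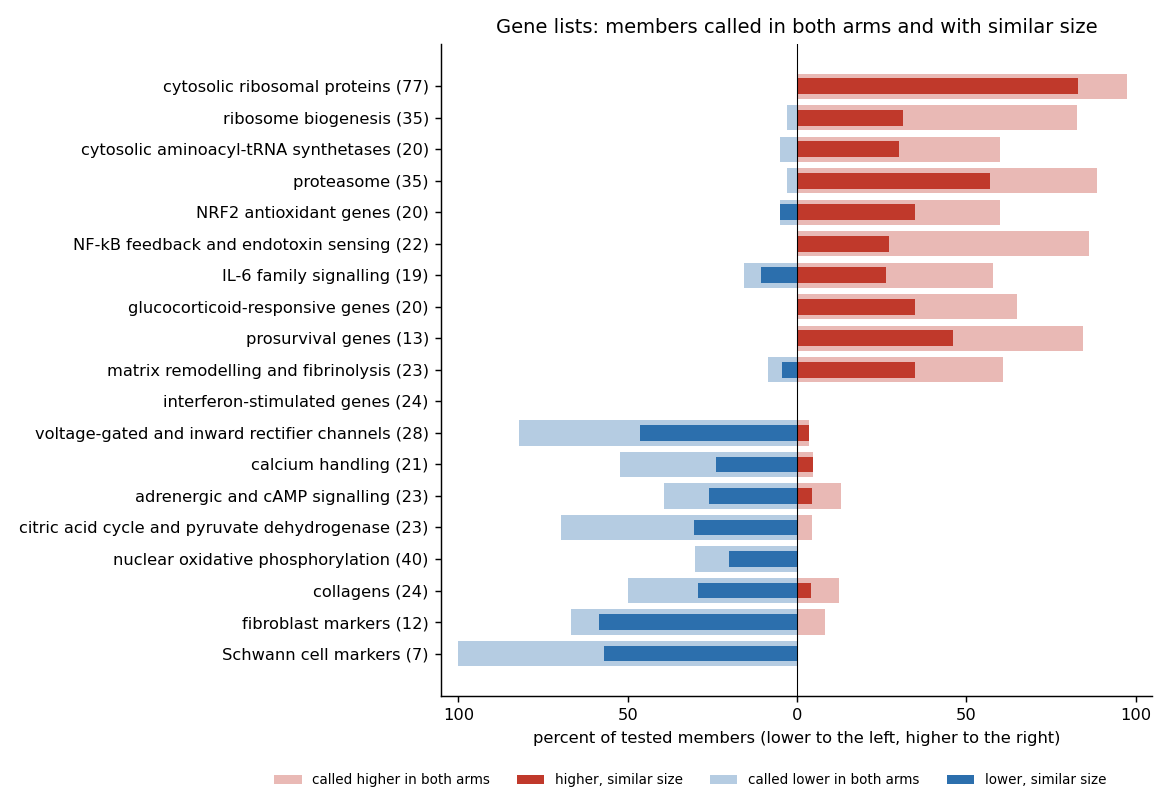
Percent of the tested members (number in brackets) of 19 gene lists called in both arms (pale bars) and of similar size (dark bars), higher to the right in red and lower to the left in blue. Ribosomal proteins and the proteasome extend furthest to the right, ion channels and Schwann cell markers furthest to the left, and no interferon-stimulated gene was called in both arms with the same sign.

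Transcripts of genes for signalling by cytokines of the IL-6 family changed in part alike, while signalling itself was not measured. Of 19 genes 11 rose in both arms and 3 fell, and 5 rose and 2 fell by a similar size. For 8 of the 19 the difference between arms passed. Stat3, the transcription factor these cytokines activate, went from 120, 130, 110 and 134 CPM to 424, 438 and 432 CPM after ISO and from 104, 101, 115 and 120 CPM to 494, 503, 475 and 429 CPM after LPS. Its feedback inhibitor Socs3 went from 3.07, 5.28, 3.92 and 4.21 CPM to 71.7, 63.9 and 51.04 CPM, and from 2.42, 4.93, 4.58 and 4.35 CPM to 62.8, 83.8, 22.96 and 34.1 CPM. Neither gene had a day 1 library at a baseline level. Socs3 rose 15.1-fold and 12.5-fold, Stat3 3.47-fold and 4.30-fold, the oncostatin M receptor Osmr 5.57-fold and 7.74-fold and the kinase Pim1 2.53-fold and 2.70-fold.

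Of 22 genes of NF-kB feedback and endotoxin sensing, 19 rose in both arms and 0 fell, and 6 were of similar size. For 13 of the 22 the difference between arms passed. Icam1, an endothelial adhesion molecule for leukocytes, was at 7.11, 10.1, 7.66 and 8.57 CPM in the ISO baseline, 170, 134 and 90.1 CPM at ISO day 1, 6.26, 8.37, 7.78 and 8.66 CPM in the LPS baseline and 116, 111, 91.6 and 114 CPM at LPS day 1. Its rise was 15.7-fold and 13.9-fold (adjusted p 5.10e-12, edgeR). Irak2, a kinase below Toll-like receptors, rose 3.93-fold and 4.74-fold, the NF-kB subunit Relb 2.52-fold and 2.26-fold and Bcl3 4.70-fold and 3.34-fold. Without LPS day 1 replicates 1 and 2 the LPS log2 change of Bcl3 was 1.14 rather than 1.74. Of 18 chemokine genes 6 rose by a similar size and 5 moved in opposite directions. The 6 include Cxcl2 and Cxcl5, which could pass the filter on low counts mainly through the day 1 libraries. The count of 6 is therefore no result about the chemokines. The fractalkine gene Cx3cl1 rose 2.40-fold and 1.91-fold. The neutrophil chemokines Cxcl2 and Cxcl5 lay between 0 and 0.197 CPM in all 8 baseline libraries and between 1.04 and 19.0 CPM at day 1. In contrast, 0 of 24 interferon-stimulated genes were shared, and 18 of them were called with opposite signs. Of 20 acute-phase genes 13 passed the filter on low counts, and of these 12 rose in both arms but only 1 by a similar size. Any of them near 0 at the baselines could pass that filter mainly through the day 1 libraries. The count called is therefore no result about them.

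Of 20 genes responsive to glucocorticoids 13 rose in both arms and 0 fell, and the difference between arms passed for 11. By a similar size 7 rose. Besides Pdk4, they include Cdkn1a (the cell cycle inhibitor p21), Map3k6 (5.83-fold and 4.89-fold) and Errfi1 (an inhibitor of the EGF receptor, 4.24-fold and 3.28-fold). Cdkn1a was at 21.1, 16.3, 16.4 and 20.8 CPM in the ISO baseline and 290, 286 and 259 CPM at ISO day 1, and at 48.3, 31.8, 29.1 and 28.5 CPM in the LPS baseline and 363, 430, 309 and 285 CPM at LPS day 1. The day 1 libraries were all above the baselines, which themselves differed (LPS against ISO log2 0.88, adjusted p 0.017, edgeR), as did 191 of 15732 genes (1.21%) between the baselines. Cdkn1a rose 14.8-fold and 10.0-fold.

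Oxidative and metabolic stress genes rose in part. Of 20 NRF2 antioxidant genes 12 rose in both arms and 1 fell, with 7 and 1 of similar size. Hmox1, which degrades heme, went from 4.89, 4.60, 5.37 and 5.05 CPM to 109, 160 and 59.9 CPM after ISO and from 5.03, 4.43, 5.33 and 4.55 CPM to 123, 99.4, 30.4 and 33.2 CPM after LPS. Every day 1 library exceeded every baseline library, and the spread within the day 1 groups was wide. Thioredoxin (Txn1) rose 1.85-fold and 1.96-fold and G6pdx, which makes NADPH, 2.03-fold and 2.48-fold. The cystine transporter Slc7a11 lay between 0 and 0.109 CPM in the 8 baseline libraries and between 1.54 and 4.66 CPM at day 1. Slc7a11 was among the 7 of similar size, but could pass the filter on low counts mainly through the day 1 libraries. Its place in these counts is therefore no result about it. Of 24 genes of the unfolded protein and integrated stress responses 10 rose in both arms, 1 fell and 3 moved in opposite directions. The difference between arms passed for 13. The 4 of similar size, a share near the 10.9% of all tested genes, were the amino acid synthesis enzymes Psat1 (7.00-fold and 4.71-fold) and Asns (4.07-fold and 3.61-fold), and Sesn2 and Trib3, which lost their call in an arm in some fits.

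Of 13 prosurvival genes 11 rose in both arms and 0 fell, 6 by a similar size, among them Pim3 (2.03-fold and 2.86-fold) and the caspase inhibitor Xiap (1.66-fold and 1.49-fold). Among 16 genes of cell cycle arrest and p53 targets 9 rose and 1 fell in both arms. Ier3 rose 3.09-fold and 3.63-fold and the kinase Plk3 3.23-fold and 2.51-fold, whereas Ccng1 fell 1.72-fold and 1.54-fold.

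Of 32 cytoskeletal and hypertrophic stress genes 19 rose in both arms and 0 fell, but only 5 by a similar size, and the difference between arms passed for 24. Ankrd1, a stretch-responsive nuclear and sarcomeric protein of cardiomyocytes, was of similar size. It went from 460, 348, 456 and 348 CPM to 4169, 5237 and 3933 CPM after ISO and from 502, 410, 517 and 430 CPM to 5712, 6671, 3228 and 2988 CPM after LPS. All day 1 libraries were above all baseline libraries, with LPS day 1 replicates 1 and 2 the highest of all. Ankrd1 rose 10.97-fold and 9.96-fold (adjusted p 1.88e-10, edgeR). Moesin (Msn), which links actin to the membrane, rose 4.38-fold and 3.50-fold, tropomyosin 3 (Tpm3) 2.70-fold and 3.04-fold and zyxin (Zyx) 2.06-fold and 1.73-fold.

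Ion channel genes fell in both arms. Of 28 genes for voltage-gated and inward rectifier channels 23 fell in both arms and 1 rose, with 13 and 1 of similar size. The list medians were -1.26 (ISO) and -1.15 (LPS) log2, and the difference between arms passed for 12. Kcnip2, the subunit that shapes the transient outward potassium current of cardiomyocytes, went from 130, 143, 130 and 132 CPM to 42.5, 30.2 and 37.1 CPM after ISO and from 149, 136, 149 and 146 CPM to 54.8, 58.2, 36.8 and 38.4 CPM after LPS. The groups were fully apart, and the fall was 3.68-fold and 3.10-fold (log2 -1.88 ± 0.15 and -1.63 ± 0.13, SE, adjusted p 1.61e-09, edgeR). Kcnv2, a modifier of potassium channels, fell 7.46-fold and 5.83-fold, the T-type calcium channel Cacna1g 4.86-fold and 4.00-fold and the pacemaker channel Hcn4 4.85-fold and 3.59-fold.

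Of 21 calcium handling genes 11 fell in both arms and 1 rose, with 5 and 1 of similar size. Pln (phospholamban, the inhibitor of the sarcoplasmic calcium pump) went from 3516, 3414, 3576 and 3329 CPM to 1503, 1127 and 1738 CPM after ISO and from 3589, 3507, 3324 and 3419 CPM to 1111, 1280, 1540 and 1732 CPM after LPS. All 7 day 1 libraries were below all baseline libraries, by 2.39-fold and 2.46-fold. The kinase Camk2a fell 2.44-fold and 2.65-fold, Asph 1.88-fold and 2.57-fold and calsequestrin 2 (Casq2) 1.72-fold and 1.60-fold.

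In adrenergic and cyclic AMP signalling 9 of 23 genes fell in both arms and 3 rose, with 6 and 1 of similar size. Another 5 moved in opposite directions, and the difference between arms passed for 13. Only ISO is an adrenergic agonist. Adcy5, the main adenylyl cyclase of the adult heart together with Adcy6, fell 1.86-fold and 1.99-fold, and the alpha-adrenergic receptor Adra1b 1.96-fold and 1.75-fold. Pde4a, which degrades cyclic AMP, fell from 95.3 to 110 CPM to 19.3 to 21.1 CPM after ISO and from 90.5 to 106.9 CPM to 21.3 to 42.7 CPM after LPS. Pde4b rose by log2 1.74 and 1.59, with the LPS value resting on 2 libraries: without LPS day 1 replicates 1 and 2 it was 0.45, without replicate 2 alone 0.98 and without replicates 3 and 4 2.22.

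The summed CPM of 20 cardiomyocyte markers fell as well, from 96087 ± 2786 to 74049 ± 10711 (SD, n = 4 and 3) in the ISO arm and from 88309 ± 3060 to 62547 ± 5321 (n = 4 and 4) in the LPS arm. An exact two-sided permutation of treatment labels within arms gave p = 0.000408, the smallest that its 2450 arrangements allow, and an adjusted p of 0.00102 over 20 marker lists. Of the markers themselves, 7 of 20 were lower and 0 higher in both arms, and 2 were lower by a similar size. Another 2 moved in opposite directions, and the difference between arms passed for 10, so the arms' sums fell through partly different genes. In bulk RNA, fewer cells of a type and less RNA per cell cannot be told apart, and the part of this fall in the channel, calcium and metabolic genes was not tested.

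Of 24 genes of glucose uptake and glycolysis 10 fell and 6 rose in both arms, 7 and 3 by a similar size. Slc2a4, the insulin-responsive glucose transporter GLUT4, went from 391, 383, 402 and 369 CPM to 156, 133 and 187 CPM after ISO and from 405, 393, 359 and 391 CPM to 121, 134, 125 and 156 CPM after LPS, with no overlap, 2.45-fold and 2.90-fold lower. The phosphofructokinase genes moved apart: the muscle form Pfkm fell 2.32-fold and 1.98-fold and the liver form Pfkl 1.58-fold and 1.81-fold, while the platelet form Pfkp rose 2.77-fold and 2.78-fold.

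Of 23 genes of the citric acid cycle and pyruvate dehydrogenase 16 fell and 1 rose in both arms, 7 falling by a similar size and modestly, such as Ogdh (1.53-fold and 1.38-fold) and Pdhb (1.37-fold and 1.29-fold). The count that fell in both arms, 16 with all libraries, was 10 without LPS day 1 replicate 3 and 8 without replicates 3 and 4. Of 40 nuclear genes of oxidative phosphorylation 12 fell and 0 rose in both arms, 8 by a similar size. The count that fell in both arms was 30 without LPS day 1 replicates 1 and 2 and 28 without replicate 2, but 3 without replicates 3 and 4. It was 28 when library totals were used for scaling and 30 in log2 TPM. Ndufs7 of complex I, which remained called, fell 1.48-fold and 1.43-fold. Of 20 genes of mitochondrial biogenesis and dynamics 9 fell and 1 rose in both arms, among them the fusion gene Opa1 (1.44-fold and 1.47-fold) and the mitochondrial ribosomal RNA methyltransferase Tfb1m (2.80-fold and 3.02-fold), with a log2 change of -2.19 in place of -1.60 for Tfb1m without LPS day 1 replicates 3 and 4. In fatty acid uptake and oxidation 8 of 34 genes rose and 8 fell in both arms, shares close to the 22.3% and 22.6% of all tested genes. The 4 of similar size all rose, also near the background share of 10.9%. They include the fatty acid transporter Cd36, at 772 to 872 CPM and 858 to 950 CPM in the baselines and 1634 to 1700 CPM (ISO) and 1423 to 1755 CPM (LPS) at day 1, and Acot1, whose LPS log2 change of 1.53 was 0.64 without LPS day 1 replicates 3 and 4. Of 22 genes of branched-chain amino acid breakdown 15 fell and 0 rose in both arms, but 0 had a similar size. Of 14 tested genes of NAD metabolism 5 rose and 5 fell in both arms. The NAD consumers Parp1 (2.51-fold and 2.05-fold) and Sirt3 (2.26-fold and 1.80-fold) fell.

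In matrix remodelling and fibrinolysis 14 of 23 genes rose and 2 fell in both arms, 8 and 1 by a similar size. For 12 of the 23 the difference between arms passed. Mmp14 (a membrane-bound metalloproteinase) rose 3.38-fold and 3.23-fold and Timp3 2.52-fold and 2.78-fold. Of 24 collagen genes 12 fell and 3 rose, 7 and 1 by a similar size, and the difference between arms passed for 12. Col15a1, a basement membrane collagen, went from 153, 153, 116 and 161 CPM to 30.8, 40.4 and 30.1 CPM after ISO and from 166, 150, 192 and 194 CPM to 45.3, 42.9, 42.8 and 30.1 CPM after LPS. It was lower in all day 1 libraries, 4.33-fold and 4.38-fold. Col14a1 fell 6.02-fold and 4.44-fold, and Col4a4 3.61-fold and 4.12-fold.

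Fibroblast markers fell in 8 of 12 genes and rose in 1, 7 falling by a similar size; the riser, the growth factor receptor gene Pdgfra (log2 0.57 and 0.22), was picked out after its values were seen. Lum (lumican, a proteoglycan) was 4.27-fold and 3.01-fold lower, Fbln1 2.21-fold and 1.81-fold, Gsn 2.04-fold and 1.82-fold and Dpt 1.63-fold and 2.09-fold. Summed over the list, fibroblast markers went from 2112 ± 26 to 1276 ± 148 CPM (SD, n = 4 and 3) and from 2213 ± 115 to 1530 ± 55 CPM (n = 4 and 4), with an adjusted p of 0.00102 (exact permutation). Of 9 tested markers of activated fibroblasts 3 rose and 2 fell in both arms and 1 moved in opposite directions, with list medians of 1.55 (ISO) and -0.17 (LPS) log2. Their summed CPM went from 137 to 656 and from 125 to 380, and ranged from 197 to 669 CPM in the LPS day 1 libraries.

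Of the other cell types, Schwann cell markers fell in all 7 tested genes, 4 by a similar size: the potassium channel Kcna1 (2.82-fold and 3.68-fold), Mbp (myelin basic protein, 2.46-fold and 1.91-fold), S100b and Sox10. These are low transcripts, and Sox10 lost its call in an arm in 8 of 31 other fits. The ISO log2 change of S100b was -2.21 in place of -1.60 without ISO day 1 replicate 2, and its LPS change -2.69 in place of -1.85 without LPS day 1 replicates 3 and 4. The summed Schwann markers were at 12.3 to 18.1 and 14.8 to 16.6 CPM at the baselines and at 6.94 to 7.29 and 3.87 to 6.41 CPM at day 1. Resident macrophage markers fell in 9 of 15 genes and rose in 1, 3 and 1 by a similar size. Another 2 moved in opposite directions, and the difference between arms passed for 8. The folate receptor gene Folr2 fell 2.71-fold and 3.05-fold, whereas Lyve1, which lymphatic endothelium also expresses, rose 1.97-fold and 1.78-fold. Their sum fell from 395 to 330 CPM and from 391.7 to 235 CPM.

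Neutrophil markers were near 0 at the baselines, so that they could pass the filter on low counts mainly through the day 1 libraries, and the count of members called is no result about them. Of 16 listed genes 14 passed the filter. The sum of the list went from 2.82 to 24.2 CPM (ISO) and from 2.85 to 61.9 CPM (LPS), with S100a9 at a mean of 6.28 and 12.7 TPM at day 1 against 0.0775 and 0.236 TPM at the baselines. Of 12 markers of monocytes and recruited macrophages 6 rose and 1 fell in both arms. Msr1, a scavenger receptor, rose 3.46-fold and 3.91-fold and Lgals3 (galectin 3) 4.44-fold and 3.18-fold. Arg1 was listed at 0 in all 4 LPS baseline libraries and at 0.372, 0.249, 0.579 and 0.171 CPM at LPS day 1, against 0.037, 0, 0 and 0.0759 CPM and then 3.84, 2.99 and 1.21 CPM in the ISO arm, so that its day 1 levels did not overlap between the arms. It met the criteria of similar size only through a fitted LPS change that depends on the prior count, and no fold is given. The summed monocyte markers went from 93.6 to 155 CPM in the ISO arm and stood at 88.3 CPM before and after LPS. The main effect was higher in CPM (30.7, adjusted p 0.0239, exact permutation) but lower in summed TPM (-14.4, adjusted p 0.0216), and the first call was lost without any of 6 ISO libraries. Summed B cell markers fell from 6.79 to 1.46 and from 6.17 to 2.02 CPM, and erythrocyte markers from 676 to 296 and from 956 to 555 CPM, all with an adjusted p of at most 0.00181 (exact permutation). Only 3 of the 9 B cell markers passed the filter, and 2 of these fell in both arms. The B cell genes Cd79a, Cd79b and Ms4a1 were near the floor, at no more than 0.489 TPM in any library. The part of blood and immune cells in the genes above was not tested.

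**Figure D5:**
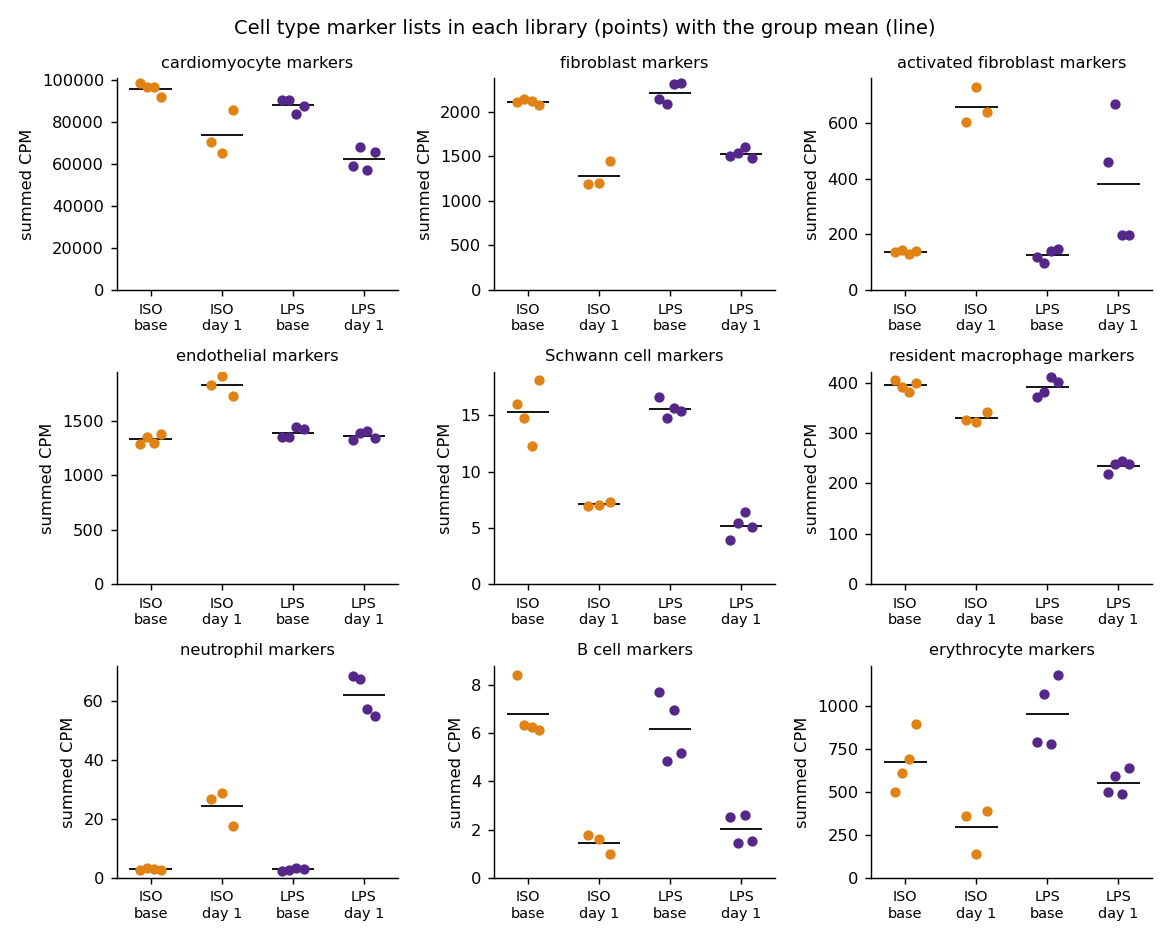
Summed CPM of 9 cell type marker lists in each of the 15 libraries, with a line for the group mean, ISO arm in orange and LPS arm in purple. Cardiomyocyte, fibroblast, Schwann cell, resident macrophage, B cell and erythrocyte markers were lower at day 1 in both arms and neutrophil markers higher, while endothelial markers stood at 1827 against 1330 CPM in the ISO arm and at 1366 against 1393 CPM in the LPS arm.

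Later libraries, which the choice of genes did not use, show the levels of the same genes at day 7. Against the same arm's baseline, 1 of 15732 genes passed at ISO day 7 (0.00636%), and 938 genes were higher (5.96%) and 493 lower (3.13%) at LPS day 7, in an edgeR model of all 6 groups. These comparisons share the baseline libraries with the day 1 comparisons. Of the 144 shared genes named by rule, 0 passed at ISO day 7, and at LPS day 7 11 were higher and 5 lower than baseline. Mt2 was at 8.90, 7.77, 35.01 and 11.035 CPM at ISO day 7 and 15.0, 17.5, 15.3 and 12.7 CPM at LPS day 7. The LPS day 7 libraries all lay above the LPS baseline libraries, without a call (log2 0.78, adjusted p 0.269, edgeR), and ISO day 7 replicate 3 was above the rest. Timp1 was also highest in that library, at 5.25 CPM against 0.989, 1.05 and 0.857 CPM in the others. Colq was at 6.78, 11.8, 7.78 and 11.9 CPM at ISO day 7 and 13.2, 13.4, 13.3 and 12.1 CPM at LPS day 7. The genes that differed at LPS day 7 include Msr1 (log2 1.41), Lgals3 (1.67), Psat1 (0.86) and Icam1 (0.68), all higher, and C1qa, lower at day 1 and higher at day 7 (0.85). Epha4 was still lower (-0.68). Cdkn1a, high at day 1, was below its baseline at LPS day 7 (log2 -1.29, adjusted p 0.000233, edgeR). Its LPS baseline was itself high, at a mean of 34.4 CPM against 18.7 CPM in the ISO baseline. At day 7 its means were 14.0 CPM (LPS) and 13.8 CPM (ISO, without a call), so the LPS call rests in part on that baseline.

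The shared genes were also compared in gene length and type, which were not used to choose them, and in level. Genes at least 2-fold higher spanned a median of 14327 bases of genome and those at least 2-fold lower 30142 bases, against 20640 bases over all tested genes. Their median effective transcript lengths were 2220, 2520 and 2291 bases, in the same order. The genes at least 2-fold lower had a median level of 3.09 CPM against 8.34 CPM for those higher and 10.8 CPM for all tested genes. These levels are means over the day 1 and baseline libraries that chose the genes, so they are not independent of the choice. Protein-coding genes made up 85.2%, 86.5% and 87.5% of the 3 sets.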

How the data were processed

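The authors deposited a table for each of the 23 libraries with, per the file headers, estimated counts of reads per gene, TPM and effective gene length in bases. Per the submitters' processing notes, the tools included DRAGEN, bcl2fastq, limma and edgeR and the build was mm10, with no versions. Which annotation release and strand setting were used is not given in the sources used. Of 55487 gene identifiers 55227 matched GENCODE M21 (GRCm38), and those without a match held at most 0.00574% of a library's reads. The deposited estimated counts, of which 9.50% were not whole, were rounded and tested in edgeR 4.0.16 (R 4.3.3) with TMM scaling (filterByExpr with groups and at least 10 counts, glmQLFit, glmQLFTest, Benjamini-Hochberg at 0.05). The main effect had the arm as a block, and changes within arms and their difference came from a model of 4 group means with a common biological coefficient of variation of 10.7%. Standard errors are the log2 change over the root of F. Depth was 20910371 to 29638113 reads in the 15 libraries. Genes kept by the filter numbered 15340. CPM are TMM-scaled over all 23 libraries, and deposited TPM were used for levels between genes and as an alternative on log2(TPM + 0.1) and log2(TPM + 1) with limma 3.58.1. Marker sums were compared by exact permutation within arms. Promoters come from RefSeq (GRCm38.p6). The procedure was tested on simulated data.

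Members and the 60 gene lists were chosen with earlier results of these data known. Genes named are the 15 higher and 15 lower with the largest smaller-arm change, without overlap between day 1 and baseline libraries in either arm and averaging 5 CPM or more in each arm's higher group. To these were added, from every list holding 4 or more genes of similar size, the 4 or fewer with the lowest adjusted main effect p, and the genes beside the size limits (146 in all). Alternatives were other scalings, DESeq2 1.42.0, limma-voom, other count minimums, effective-length offsets, no mitochondrially encoded genes, no arm block, a replicate block, all 6 groups in a single model, other size criteria, and leaving out libraries. Results of 2 genes are not reported here.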

Additional observations from a re-analysis of the deposited data

Results flagged for a closer look

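For 11 of the named genes the rise or fall passed in both arms with similar size and the difference between arms passed as well (edgeR quasi-likelihood, adjusted p under 0.05). The LPS minus ISO difference in log2 change was 0.31 for Stat3, -0.20 for Aars, -0.50 for Psmd11, 0.50 for Pim3, 0.24 for Bmpr2, all of which rose. Among genes that fell it was 0.29 for Parp1, 0.32 for Sirt3, 0.57 for Pde4a and 0.51 for Lum, which fell less after LPS, and -0.45 for Asph and -0.35 for Dpt, which fell more after LPS.

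Of 494 groups of 4 libraries tested for a value far from the other 3, 22 stood out, and chance gives about 1 in 20. In the ISO baseline a single library was high for Ch25h (0.824 CPM), Mt1 (142), Cc2d2a (13.4), Psmd11 (60.2), G6pdx (8.26), Nadk (26.5), Ier3 (21.1), Plk3 (2.47) and the summed B cell markers (8.41 CPM), and low for Gm10435 (6.79) and Tpm3 (39.0). In the LPS baseline it was high for Krt222 (23.9 CPM), Bcl3 (4.97), Cdkn1a (48.3), Rps18 (98.2), Adcy5 (159) and Dpt (53.1), and low for Cx3cl1 (11.004) and Ogdh (2766). At LPS day 1 it was high for Ier3 (85.0 CPM) and the summed pericyte and smooth muscle markers (768 CPM) and low for Col15a1 (30.1 CPM).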

How the results depend on the processing

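The named genes kept the sign and the call of the main effect in all 4669 of their alternative values. Of the 144 shared genes named, 134 stayed called in both arms under every alternative fit and 70 kept a similar size under every one, with 114 keeping it without LPS day 1 replicates 1 and 2 and 111 without replicates 3 and 4. The counts of shared genes depend on the criterion. With a ratio of at least 0.8 there were 1008 higher and 1158 lower, with no size criterion 3420 and 3465, and with the 90% interval of the difference within 1 log2 unit 2619 higher. The counts at least 2-fold in both arms were 254 higher and 295 lower with log2(TPM + 1), 270 and 455 with a difference of at most 0.3, and 816 and 1145 with no size criterion. Correlations of the libraries' deviations from their group means ran from -0.02 to 0.09 for the same replicate number. For different numbers they ran from -0.08 to 0.05. These ranges overlap and cannot decide whether replicate numbers pair the libraries. With a replicate block the main effect called 4616 higher and 4661 lower, and 1586 and 1747 genes were of similar size, of which 3132 in all were in the main set. In 2 of the 3506 genes the sign of the main effect turned in log2 TPM, and in 3 with effective-length offsets. Of the marker sums, endothelial markers (235 CPM higher) lost their call when any ISO library was left out (212 to 259), as did monocyte markers without 6 of the ISO libraries (27.9 to 33.4 over all 15 single libraries left out) and platelet markers (8.0) without any of 11 libraries (7.08 to 9.32). In summed TPM, monocyte markers were lower (-14.4) with a call, pericyte and smooth muscle markers higher by 19.9 without a call, platelet markers 17.2 without a call, and natural killer cell markers 0.72 with a call. Over the single libraries left out, pericyte and smooth muscle markers ran from -170.4 (called, without ISO day 1 replicate 3) to -98.8, natural killer cell markers from 0.939 to 1.18 (called, without ISO baseline replicate 1), and adipocyte markers from -0.384 to 0.227, never called. Low counts limit genes at or near 0 at baseline, such as Cxcl2, Cxcl5, Slc7a11 and Arg1.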
